A study of Mus musculus with 16 samples.

Results

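Cytosolic ribosomal protein genes encode the protein parts of the ribosome that translates nuclear-encoded messages in the cytoplasm. A list of 48 of them was examined here: 26 of the large subunit, 19 of the small subunit and the 3 genes of the P stalk (Rplp0, Rplp1 and Rplp2). For each gene, the H3K4me3 region with the most counts within 2 kb of either gene end was taken, over the 12 H3K4me3 libraries. All 48 genes had such a region, which gave 48 separate regions on 18 chromosomes out of 35996 regions in all, and all 48 passed the filter on low counts. Other gene-end regions of like strength served as the comparison. These are the strongest end regions of other genes whose mean log2 CPM (counts scaled to a common library size) lay between the 10th and 90th percentile of the 48 genes, and there were 4279 of them.

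H3K4me3 was measured in the hippocampus of adult male mice aged 2 to 4 months, and each library was a pool of 2 mice. The Kdm5c KO and its WT littermates, on a mixed background of C57 and 129, were profiled under standard conditions and after 1 h of exploring a box with objects, called novelty. The ifKO and its control littermates, written ifWT here, were C57BL/6J and were kept in the basal state; the making of the ifKO is not described in the labels used here. Each of these 6 groups had 2 libraries, and Kdm5C and H3K4me1 were each measured in 1 WT and 1 KO library of C57BL/6J mice. Kdm5C is a demethylase encoded on the X chromosome that removes methyl groups from H3K4, so its loss bears on how much H3K4me3 promoters carry.

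H3K4me3 is the histone mark of active and poised promoters, and nearly every gene in use carries a peak of it just downstream of its start. Ribosomal protein genes are among the most steadily transcribed genes of any cell, and their promoters are CpG islands without cell type restriction. Their messages usually begin with a C followed by a run of pyrimidines, the terminal oligopyrimidine (TOP) tract, through which mTOR signalling controls their translation. In neurons, ribosomes also lie in dendrites and axons, where local translation serves synaptic change.

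Total counts per library ranged from 18181192 to 30435735, and the 48 regions held 0.356 to 0.415% of them. The 2 libraries of a group differed by more than counting noise in all 6 groups, and most in ifKO (chi-square per degree of freedom 8.42, against 2.34 to 2.88 in the 4 groups of the KO cohort and 4.81 in ifWT). The region at the end of Kdm5c itself held 59.9 to 60.9 CPM in the 4 KO libraries and 61.6 to 72.2 CPM in the 4 WT libraries. Which part of the gene is deleted is not stated in the labels used here, so this level does not check the labels. Summed H3K4me3 at 10 neuron marker genes was 936 to 1150 CPM in every library, and it was 26.1 to 35.2 CPM at the 2 of 5 choroid plexus markers that had a region; Ttr, Folr1 and Otx2 had none. In bulk tissue, fewer cells carrying a mark and less mark per cell cannot be told apart.

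Start sequences were available from RefSeq (GRCm38.p6) for 39 of the 48 genes. A C at the listed start followed by at least 4 pyrimidines was found in 10 of the 39 (25.6%), against 2.43% of the promoters of like-strength genes and 2.53% of all 27025 promoters. Allowing the run to begin up to 5 bases from the listed start gave 18 of 39 (46.2%), against 18.2% and 18.3%. The windows below show 4 genes with the run and 3 genes without it that the H3K4me3 results turn on. Each holds 40 bases before the listed start and 20 from it. Capitals mark the pyrimidine run from its first C within 5 bases of the start. Pyrimidines leading into it from farther upstream, as at Rpl35, stay in lower case.
Rps6 (chr4:86857348-86857407, - strand): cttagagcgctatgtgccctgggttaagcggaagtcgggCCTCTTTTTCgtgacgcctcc
Rpl15 (chr14:18270967-18271026, - strand): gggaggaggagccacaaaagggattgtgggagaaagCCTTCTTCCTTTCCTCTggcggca
Rpl35 (chr2:39005112-39005171, - strand): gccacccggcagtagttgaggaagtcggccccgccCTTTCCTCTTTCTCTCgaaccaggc
Rps18 (chr17:33955646-33955705, - strand): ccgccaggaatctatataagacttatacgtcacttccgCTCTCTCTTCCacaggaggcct
Rpl22 (chr4:152325686-152325745, + strand): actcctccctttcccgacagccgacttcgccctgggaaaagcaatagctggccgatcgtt
Rpl5 (chr5:107900488-107900547, + strand): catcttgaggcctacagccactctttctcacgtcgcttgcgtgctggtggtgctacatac
Rpl10a (chr17:28328431-28328490, + strand): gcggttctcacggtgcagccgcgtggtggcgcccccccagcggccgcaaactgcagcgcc
The run was 17 bases long at Rpl15, which encodes a large-subunit protein, and 10 at Rps6, whose protein is phosphorylated by S6 kinase. Rpl22, Rpl5 and Rpl10a held no such run beginning within 5 bases of their listed starts, which says only that these letters are not at that place. At Rpl10a a run of C begins farther upstream and reaches to within 5 bases of the start.

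Short motifs were searched in the 300-base promoters on both strands. The letters CCGGAAG, the core bound by ETS factors, were in 16 of 39 promoters (41.0%), against 23.0% of like-strength and 9.08% of all promoters. GGGCGG, the GC box, was in 53.8%, against 69.6% and 35.6%, and TATAAA was in 7.69%, against 5.02% and 14.1%. AAGATGGC, part of the YY1 motif, was in 1 of 39 (2.56%), against 5.31% and 2.86%. The observed-to-expected CpG ratio had a median of 0.857 over the 39 promoters, 0.839 over like-strength promoters and 0.380 over all. The motifs were each searched on their own, and the list was chosen with earlier results of these data known.

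H3K4me3 at the ribosomal protein genes was strong and uniform. The mean level over the 12 libraries ran from 52.3 CPM at Rpl6 to 148 CPM at Rpl24, a 2.83-fold range, with a median of 77.1 CPM. Among all regions at gene ends these levels stood between the 63.6th and the 98.7th percentile. That ranking also holds weaker end regions of other genes, while only the strongest was taken here, so high ranks are partly set by the choice. The range of levels was not compared with that of other genes. The regions were 1167 to 2450 bp wide, with a median of 1723.5 bp, against 1804 bp for like-strength regions. Per kilobase of region the levels ran from 34.9 CPM at Rpl38 to 63.2 CPM at Rpl5, with a median of 46.6, against 44.0 at like-strength regions. So the genes differed less per kilobase than in total.

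The 3 highest levels were at Rpl24, Rpl4 and Rps6. The strongest region counted for Rpl24 gave 149 and 159 CPM in WT and 142 and 144 CPM in KO under standard conditions. It gave 152 and 159 in WT and 135 and 135 in KO after novelty, 152 and 156 in ifWT, and 139 and 156 in ifKO. This region (chr16:55973188-55975638) lies 6913 bp from the listed start of Rpl24 and holds the end of Zbtb11, a zinc finger gene; the region at the Rpl24 start itself had 72.7 CPM. Rpl4, a large-subunit protein that reaches into the exit tunnel, had 112 to 136 CPM over the 12 libraries, and Rps6 had 104 to 126 CPM. The lowest levels were at Rpl6 (49.0 to 57.0 CPM), Rpl27 (47.9 to 60.6 CPM) and Rpl28 (49.2 to 68.8 CPM), all of the large subunit. Ranges of neighbours in this order overlapped throughout the list.

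**Figure D1:**
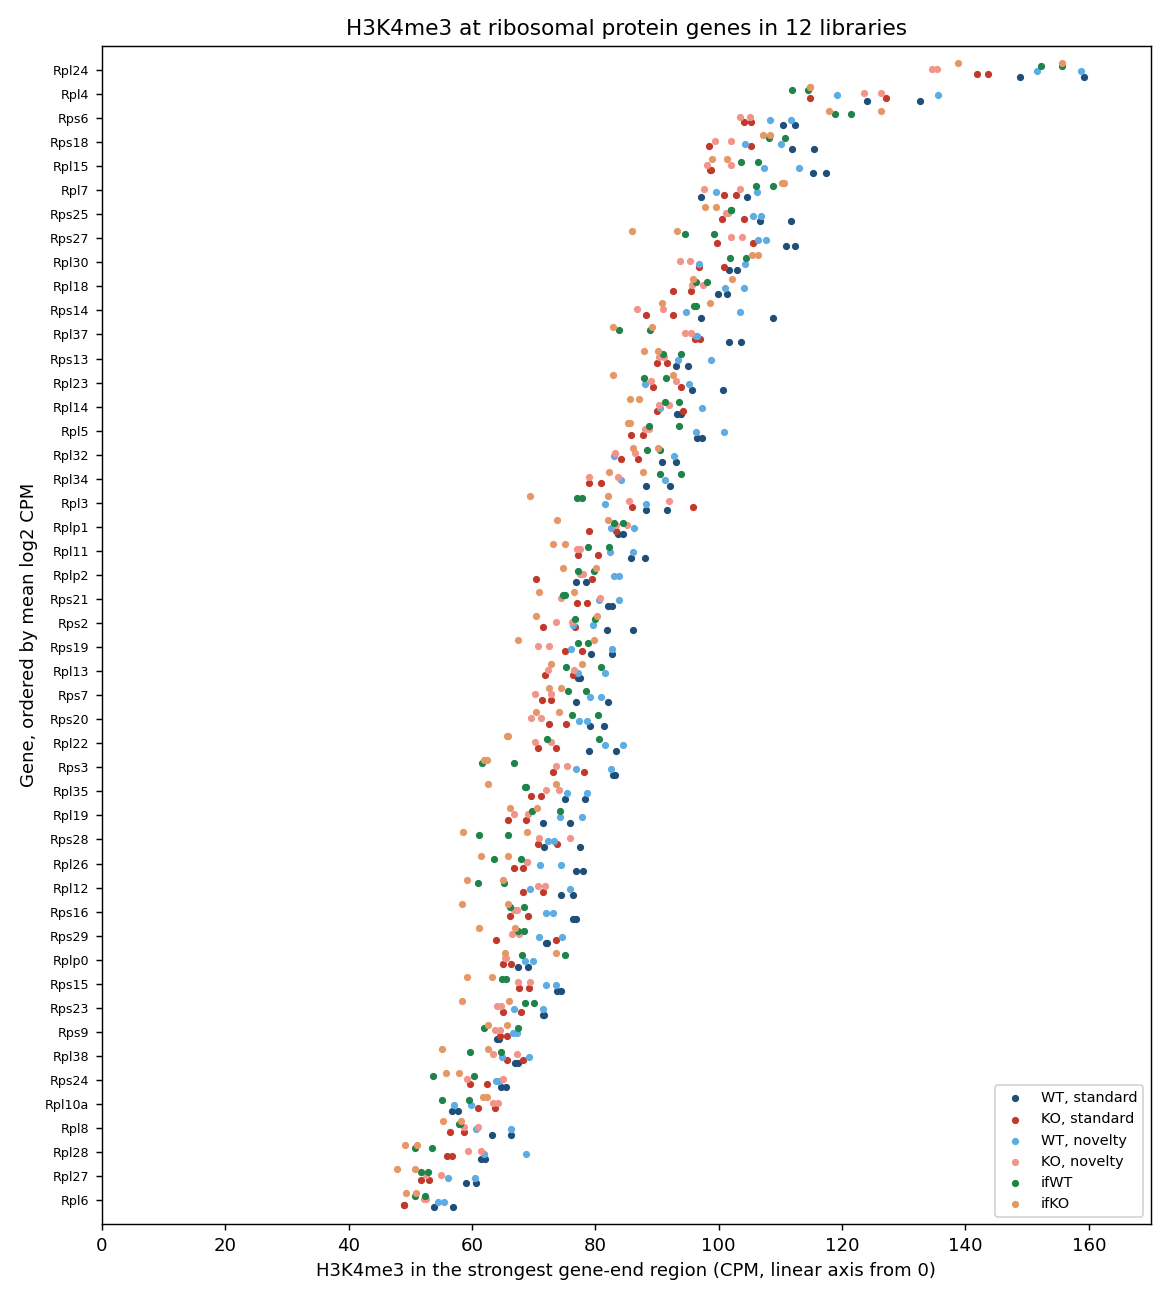
H3K4me3 in CPM (linear axis from 0) in the strongest region at the ends of each of the 48 ribosomal protein genes, with 1 point per library and colours for the 6 groups. The library values lie between 47.9 and 159 CPM, Rpl24 stands at the top, and the spread within a gene is small against the spread between genes.

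Of the 48 regions, 17 had no other gene end within 2 kb and 31 had at least 1, often a small nucleolar RNA gene hosted in an intron or a divergent neighbour. Rpl15 shared its region with Nkiras1, Rpl10a with Fance, Rplp1 with Kif23 and Rps18 with Vps52. The counts of such a region cannot be divided between the genes. For 35 of the 39 genes with a listed start, the chosen region held that start. The others were Rpl24, Rpl19 (4053 bp away), Rplp0 (5210 bp away, at the end of Gcn1) and Rpl27, whose region began 15 bp past the start. The Rpl19 region holds an annotated end of Rpl19 itself and also lies at the end of Cacnb1.

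In the Kdm5c KO, H3K4me3 at ribosomal protein genes was slightly lower, by as much as at other regions of like strength. Averaged over both conditions, 21 of the 48 regions fell and 1 rose by edgeR's quasi-likelihood test (Benjamini-Hochberg adjusted p under 0.05). Among all 35955 regions tested, 13.9% fell and 18.1% rose, and 32.1% changed either way. Among like-strength regions 45.4% fell and 4.28% rose, so the 43.8% of ribosomal protein genes that fell were close to their background. The median log2 change was -0.09 over the 48 genes and -0.10 over the like-strength regions, and 46 of the 48 values were below 0. By subunit, 12 of 26 large-subunit genes fell and 1 rose, and 9 of 19 small-subunit genes fell. None of the 3 stalk genes was called at its strongest region by edgeR, DESeq2 or limma-voom, and none had an unadjusted p under 0.05. Their changes were -0.07 at Rplp0, -0.03 at Rplp1 and -0.08 at Rplp2. The Rplp0 value is from the region at the end of Gcn1. At the Rplp0 start the change was -0.14 (edgeR adjusted p 0.020), which passed the threshold.

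The size of this fall went with the strength of a region. Medians of other gene-end regions went from 0.08 at a mean log2 CPM of 1 to 2 to -0.10 at 6 to 7, where 41 of the 48 genes lie. With offsets fitted to region strength in each library, the median of the 48 genes was -0.02 and that of the like-strength regions -0.02, and 2 genes were called lower and 2 higher instead of 21 and 1. Scaling to library totals gave 10 lower and 1 higher, with a median of -0.05. Leaving out 1 library at a time gave 11 to 22 called genes, and the count was 13 without replicate 1 of KO after novelty, 11 without replicate 2 of WT after novelty and 13 without replicate 2 of WT under standard conditions.

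**Figure D2:**
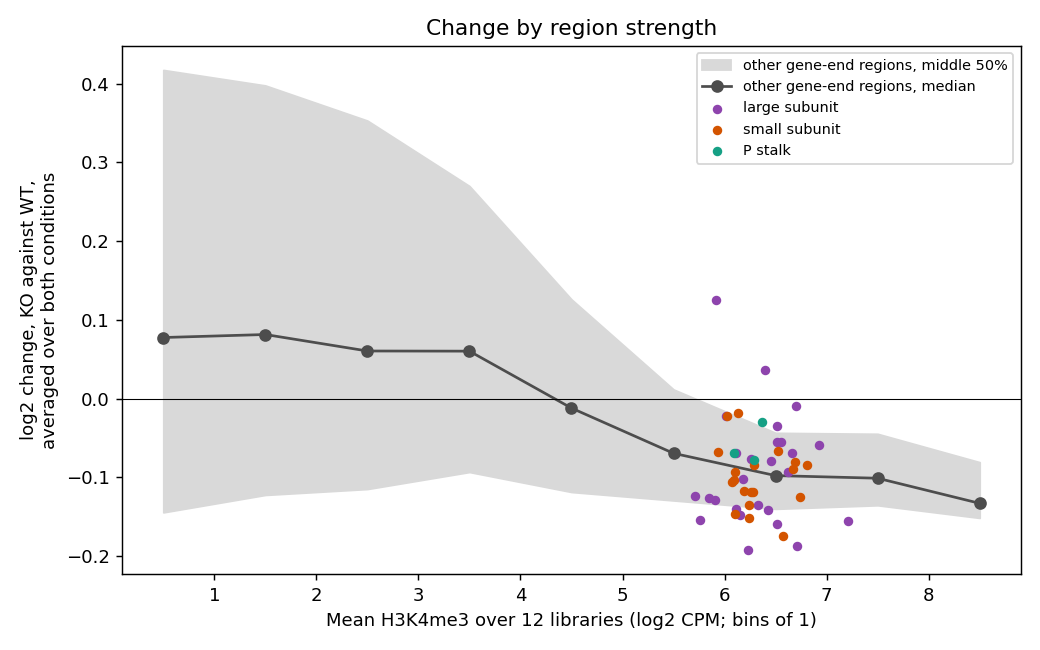
Log2 change in H3K4me3, KO against WT averaged over both conditions, against the mean level in log2 CPM. The grey line and band are the median and middle 50% of other gene-end regions in bins of 1, and points are the 48 ribosomal protein genes by subunit; most points lie within the band, and Rpl10a lies above it.

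Under standard conditions, Rpl15 had the largest fall of the 48 genes. Its region held 115 and 117 CPM in WT and 98.6 and 98.8 CPM in KO, a log2 change of -0.24 ± 0.05 (SE; edgeR adjusted p 0.0017). After novelty it held 107 and 113 CPM in WT and 102 and 98.1 CPM in KO (log2 change -0.14, adjusted p 0.061). Every KO library was below every WT library. Averaged over both conditions the change was -0.19 ± 0.04 (adjusted p 2.0e-04), and Rpl15 was called lower in all 16 alternatives run for that comparison and in all 12 for standard conditions.

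Under standard conditions, 10 of the 48 genes fell and none rose, against 3.67% lower and 9.73% higher among all regions and 12.8% lower and 2.13% higher among like-strength regions. At an unadjusted p under 0.05 the 48 genes gave 20 lower and 1 higher, and DESeq2 and limma-voom each called 9 lower and none higher. Beside Rpl15, those that fell were Rpl26, Rps14, Rpl27, Rps16, Rpl34, Rpl5, Rps2, Rps18 and Rpl6. The median over the 48 genes was -0.11, against -0.09 over like-strength regions. KO libraries were all below WT libraries at 38 of the 48 genes and all above at 2, against 63.6% and 8.34% of like-strength regions. Of all regions, 27.8% were all below and 30.2% all above. With library totals 1 gene was called. With offsets fitted to strength 1 was called lower and 1 higher. Leaving out either WT library or either KO library left 1 or 2 called.

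Rpl26, whose protein sits near the exit of the ribosome's peptide tunnel, held 76.9 and 78.0 CPM in WT and 68.2 and 66.8 CPM in KO under standard conditions (log2 change -0.20 ± 0.06, adjusted p 0.017). After novelty it held 71.1 and 74.5 CPM in WT and 68.9 in both KO libraries (log2 change -0.08, adjusted p 0.35). KO was below WT in each condition, with a smaller gap after novelty. The interaction of genotype and novelty, which tests that difference, gave 0.12 ± 0.08 with an adjusted p near 1 (unadjusted p 0.14).

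Rpl5 binds the 5S ribosomal RNA together with Rpl11, and both proteins can bind Mdm2 and so stabilise p53 when ribosome assembly fails. Rpl5 held 96.4 and 97.3 CPM in WT and 87.8 and 85.7 CPM in KO under standard conditions (log2 change -0.16 ± 0.05, adjusted p 0.041). After novelty its values were 96.3 and 101 CPM in WT and 88.1 and 88.7 CPM in KO (log2 change -0.16, adjusted p 0.033). In the main edgeR fit it was the only 1 of the 48 genes called in each condition on its own. DESeq2 and limma-voom also called Rpl15 in each, and limma-voom Rps14. With library totals or with offsets fitted to strength, Rpl5 was called in neither condition. Rpl11 held 88.1 and 85.8 CPM in WT against 80.4 and 77.2 CPM in KO under standard conditions. After novelty Rpl11 held 82.4 and 86.1 CPM in WT against 77.0 and 77.5 CPM in KO. Rpl11 was called only in the average (log2 change -0.13 ± 0.04, adjusted p 0.0071), although no KO library reached a WT library in either condition.

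After novelty, 5 of the 48 genes fell: Rpl22, Rpl24, Rpl5, Rps7 and Rpl19. None rose by edgeR, 1 was higher and 10 lower at an unadjusted p under 0.05, and DESeq2 and limma-voom called 7 and 8 lower and none higher. Among all regions 5.96% were lower and 11.1% higher in that comparison, and among like-strength regions 21.1% were lower and 2.55% higher. The median was -0.09 over the 48 genes and -0.10 over like-strength regions. KO libraries were all below WT libraries at 34 genes and all above at 1, against 64.8% and 8.81% of like-strength regions. Of all regions, 28.2% were all below and 31.0% all above. The count was 3 with library totals (1 higher and 2 lower), 1 higher and none lower with offsets fitted to strength, and 0 without replicate 2 of KO or without replicate 2 of WT. It was 1 without replicate 1 of KO.

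Rpl22 encodes an RNA-binding protein of the large subunit that cells can do without, since its close copy Rpl22l1 can take its place. Its region held 81.6 and 84.5 CPM in WT and 72.8 and 70.3 CPM in KO after novelty (log2 change -0.22 ± 0.06, adjusted p 0.0088). Under standard conditions it held 79.0 and 83.4 CPM in WT and 70.7 and 73.7 CPM in KO (log2 change -0.17, adjusted p 0.051). All 4 KO libraries lay below all 4 WT libraries. Averaged over conditions the change was -0.19 ± 0.04 (adjusted p 5.7e-04), and Rpl22 stayed called lower in all 16 alternatives, with changes of -0.21 to -0.12. Within the novelty comparison it was not called without replicate 2 of KO (adjusted p 0.097) or replicate 2 of WT (adjusted p 0.12), nor with offsets fitted to strength (adjusted p 0.052). Rpl22l1 held 83.7 CPM in WT and 79.4 CPM in KO on average under standard conditions, with a change of -0.08 averaged over conditions (adjusted p 0.10).

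Rpl24 and Rpl19 take part in bridges between the subunits, and their calls after novelty rest on regions away from their listed starts. The Rpl19 region holds an annotated end of Rpl19 as well as lying at the end of Cacnb1, so its counts cannot be assigned to either gene. At the Rpl24 region with Zbtb11 the change was -0.20 ± 0.05 after novelty (adjusted p 0.011), and at the Rpl24 start it was -0.09 (adjusted p 0.27). Averaged over conditions the Rpl24 start fell by 0.13 on the log2 scale (adjusted p 0.016). At the Rpl19 region with Cacnb1 the change was -0.16 ± 0.06 after novelty (adjusted p 0.046), and at the Rpl19 start, which had a higher level of 106 CPM, it was -0.05 (adjusted p 0.58). Averaged over conditions the Rpl19 start changed by -0.04 (adjusted p 0.48). The Rplp0 start, at 44.6 CPM, changed by -0.14 (adjusted p 0.020) averaged over conditions, whereas the stronger region with Gcn1 changed by -0.07 (adjusted p 0.23). With the region at the listed start in each gene, 38 genes could be used and 3 were called after novelty.

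Among small-subunit genes, Rps14 had the largest change in the KO averaged over conditions. Loss of 1 copy of its human counterpart underlies the anaemia of 5q- syndrome. Rps14 held 97.2 and 109 CPM in WT and 92.6 and 88.3 CPM in KO under standard conditions, and 94.7 and 103 CPM in WT and 86.8 and 90.9 CPM in KO after novelty. Every KO library was below every WT library, and the averaged change was -0.17 ± 0.04 (adjusted p 0.0020). Rps19, the gene most often mutated in Diamond-Blackfan anaemia, held 82.7 and 79.3 CPM in WT and 75.1 and 77.8 CPM in KO under standard conditions. After novelty it held 76.1 and 82.8 CPM in WT and 70.7 and 72.4 CPM in KO. It fell only in the average (log2 change -0.12 ± 0.04, adjusted p 0.040). That call was lost with library totals and with offsets fitted to strength. Rps7 (averaged change -0.15, adjusted p 0.0034) and Rps16 (-0.15, adjusted p 0.0067) also fell. Rps6 did not pass the test in the average (-0.08, adjusted p 0.080).

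The remaining falls in the average had sizes of -0.15 to -0.10: Rpl27, Rpl34, Rps20, Rpl8, Rpl28, Rpl6, Rps18, Rps2, Rps3 and Rps15. Of these, only Rpl27 and Rpl34 stayed called with library totals, and none did with offsets fitted to strength. Rpl27 held 59.0 and 60.6 CPM in WT and 51.7 and 53.0 CPM in KO under standard conditions, and Rpl34 held 88.2 and 92.1 CPM in WT and 81.0 and 79.0 CPM in KO. Neither gene's groups overlapped there. Rpl3, which lies at the peptidyl transferase centre, was 1 of the 2 genes with a value above 0 in the average (0.04 ± 0.05, adjusted p 0.58). Its libraries overlapped, with 91.5 and 88.3 CPM in WT and 95.9 and 85.9 CPM in KO under standard conditions. With offsets fitted to strength, Rpl3 was called higher.

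Rpl10a was the 1 ribosomal protein gene that rose in the KO, and it was singled out after its values were seen. Its protein forms the L1 stalk that moves spent tRNA out of the ribosome, and tagged Rpl10a is used to purify ribosomes from chosen cell types. The region (chr17:28327948-28329638), shared with the DNA repair gene Fance, held 57.7 and 56.8 CPM in WT and 63.7 and 61.0 CPM in KO under standard conditions. After novelty it held 59.9 and 57.1 CPM in WT and 64.3 and 63.4 CPM in KO. All 4 KO libraries were above all 4 WT libraries, and the averaged change was 0.12 ± 0.04 (adjusted p 0.021). In the ifKO cohort it held 59.6 and 55.1 CPM in ifWT and 62.5 and 61.8 CPM in ifKO, a change of 0.12 ± 0.06 that did not pass the test (adjusted p 0.30). The call in the average held in 11 of 16 alternatives. It was lost with DESeq2 and without replicate 1 of KO or replicate 2 of WT in either condition, with adjusted p up to 0.10 and changes of 0.11 to 0.18.

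**Figure D3:**
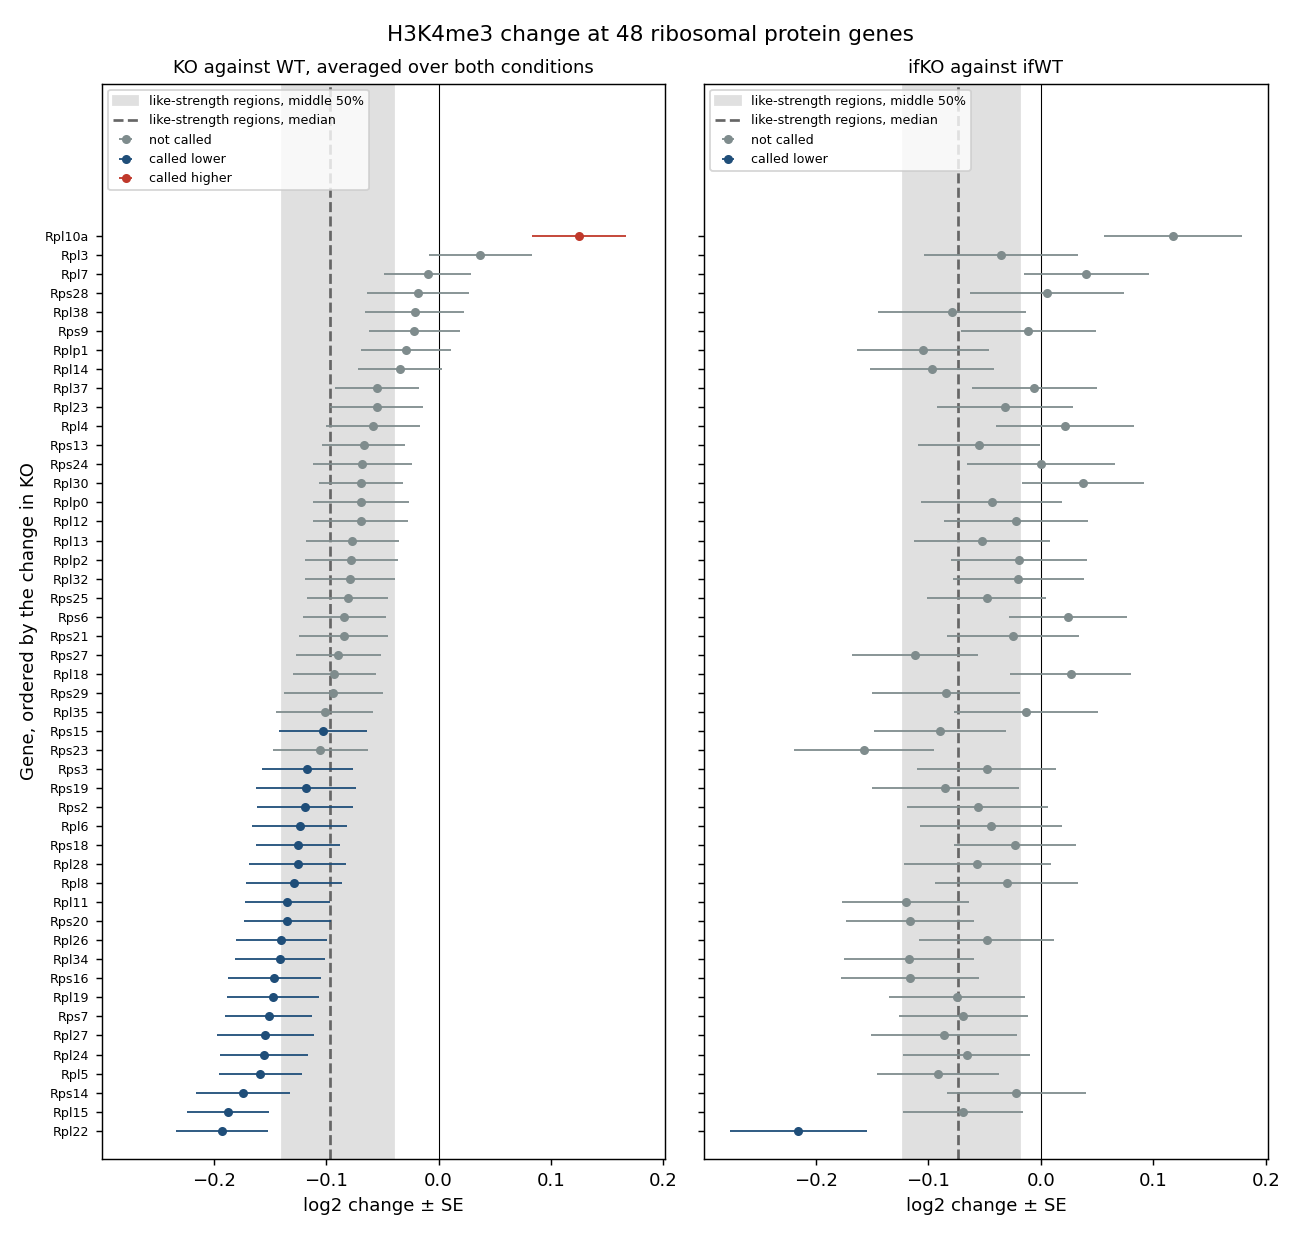
Log2 change ± SE at each of the 48 genes, ordered by the change in KO, for KO against WT averaged over both conditions (left) and ifKO against ifWT (right). The dashed line and grey band are the median and middle 50% of like-strength regions; 21 genes fell and Rpl10a rose on the left, and Rpl22 alone fell on the right.

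Marker genes of other cell types differed between the KO and WT libraries as well. Summed H3K4me3 at 5 of 7 listed interneuron markers was 49.2 to 54.1 CPM in the 4 KO libraries and 59.3 to 66.9 CPM in the 4 WT libraries, with Slc32a1 and Vip lacking a region. Of the 5, 1 fell in the averaged comparison and 2 had values above 0, with changes of -0.43 to 0.09 and a median of -0.06. At the 6 oligodendrocyte markers used it was 194 to 205 CPM in KO and 208 to 220 CPM in WT. Sums at the astrocyte, microglia, vascular and neuron markers overlapped between KO and WT. Among the 8 vascular markers, however, 4 fell and 1 rose in the averaged comparison, with a median of -0.18. Of all regions, 13.9% fell and 18.1% rose in that comparison. None of the interneuron, oligodendrocyte or vascular marker regions was among the like-strength regions. The part of these differences in the values at ribosomal protein genes was not tested.

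Between novelty and standard conditions no single ribosomal protein gene was called. In WT, none of the 48 was called by edgeR, DESeq2 or limma-voom, and none had an unadjusted p under 0.05; 0.00556% of all regions were called. The median change was -0.02 over the 48 genes and -0.0030 over like-strength regions. Novelty libraries of WT were all below standard libraries at 14 genes and all above at 2. Of like-strength regions 18.3% were all below and 17.2% all above, and of all regions 17.5% and 17.1%. The smallest p was at Rps2, a small-subunit protein at the mRNA entry channel, with 81.9 and 86.1 CPM under standard conditions and 76.4 and 79.6 CPM after novelty (log2 change -0.11 ± 0.06, unadjusted p 0.087 in edgeR). Rplp2 followed with 0.10 (unadjusted p 0.089) and Rpl23 with -0.10 (unadjusted p 0.098). In KO, likewise none was called by the 3 tools and none had an unadjusted p under 0.05, against 0.0% of all regions called. The median was -0.0053 over the 48 genes and -0.0076 over like-strength regions. Novelty libraries of KO were all below standard libraries at 7 genes and all above at 7. Of like-strength regions 20.5% were all below and 14.1% all above, and of all regions 17.5% and 15.7%. The values of smallest p were 0.10 at Rpl28, 0.10 at Rpl6 and -0.10 at Rps19, with unadjusted p of 0.11 to 0.14. For the interaction of genotype and novelty, 0.0% of regions were called and none of the 48 genes by any of the 3 tools, with none at an unadjusted p under 0.05. Rpl26, Rps2 and Rpl15 had the smallest p there (0.14 to 0.18) and changes of 0.10 to 0.12. Standard errors of single genes were near 0.06 here, with 2 libraries a group.

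In the ifKO, the ribosomal protein genes were lower by a smaller amount, and 1 gene passed the test. The median change was -0.05 over the 48 genes and -0.07 over like-strength regions, and 40 of the 48 values were below 0. Rpl22 was the gene called, against 0.979% of all regions lower and 4.41% higher, and 3.79% of like-strength regions lower and 1.1% higher. Its values were 80.7 and 72.2 CPM in ifWT and 65.6 and 65.9 CPM in ifKO (log2 change -0.22 ± 0.06, adjusted p 0.031). The ifKO libraries lay below both ifWT libraries, which differed from each other by more than the ifKO libraries did. The call was lost in 6 of 12 alternatives: with limma-voom (adjusted p 0.058), with offsets fitted to strength (0.084), with only the groups compared (0.11), and without replicate 1 of ifWT (0.41), replicate 1 of ifKO (0.17) or replicate 2 of ifKO (0.068).

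The genes next in p were Rps23, Rpl11, Rps20 and Rpl34, none called. Rps23, a small-subunit protein at the decoding centre, held 70.0 and 68.7 CPM in ifWT and 58.5 and 66.0 CPM in ifKO (log2 change -0.16 ± 0.06, adjusted p 0.15). Rpl11 held 82.3 and 78.8 CPM in ifWT and 75.03 and 73.1 CPM in ifKO (-0.12, adjusted p 0.24). The ifKO values of these genes lay below the ifWT values. Over the list, ifKO libraries were all below ifWT libraries at 17 genes and all above at 4, against 46.6% and 7.24% of like-strength regions. Of all regions, 22.3% were all below and 21.8% all above. With offsets fitted to strength, the median of the 48 genes was 0.01, so its sign depends on that scaling. Summed H3K4me3 at the neuron markers was 1094 and 1150 CPM in ifKO and 936 and 1006 CPM in ifWT. Most of that gap came from Camk2a, a kinase gene of excitatory neurons, with 272 and 263 CPM in ifKO and 140 and 124 CPM in ifWT; it was the 1 of 10 neuron markers called, and the median change of the 10 was 0.03. At oligodendrocyte markers it was 196 to 205 CPM in ifKO and 217 to 224 CPM in ifWT, and their part in these values was not tested.

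The effects of the KO under standard conditions and of the ifKO were compared directly as a difference of changes. None of the 48 genes passed that test in edgeR, DESeq2 or limma-voom, and 1 had an unadjusted p under 0.05, against 0.701% of all regions called. That gene was Rpl15, with -0.24 in KO, -0.07 in ifKO and a difference of -0.17 ± 0.07 (unadjusted p 0.032, adjusted p 0.52). Across the 48 genes, the averaged KO change and the ifKO change, which share no library, had a Pearson correlation of 0.59 and a Spearman correlation of 0.52, and 40 of 48 had the same sign. Over the 4279 like-strength regions the same figures were 0.65, 0.54 and 84.95%. The KO changes under standard conditions and after novelty, which also share no library, gave 0.65, 0.56 and 45 of 48, against 0.77, 0.64 and 88.8% over like-strength regions. Genes are not independent replicates, and these values describe the list only.

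The cohorts differed in where the ribosomal protein genes stood relative to like-strength regions. The median log2 level of the 48 genes minus that of the like-strength regions was 0.03 to 0.04 in the 4 WT libraries and -0.03 to 0.02 in the 4 KO libraries. It was -0.07 and -0.03 in ifWT and -0.11 and -0.05 in ifKO. The 4 WT libraries lay above both ifWT libraries, while the top KO library lay just under the lowest WT library and the lowest KO library lay beside the higher ifWT library. Strain background and cohort cannot be told apart here. Among the genes themselves, Rps3, a small-subunit protein that also acts in DNA repair, held 76.8 to 83.1 CPM in the 4 WT libraries and 61.6 and 66.8 CPM in ifWT. Rps6 ran the other way, with 108 to 112 CPM in the 4 WT libraries and 122 and 119 CPM in ifWT.

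**Figure D4:**
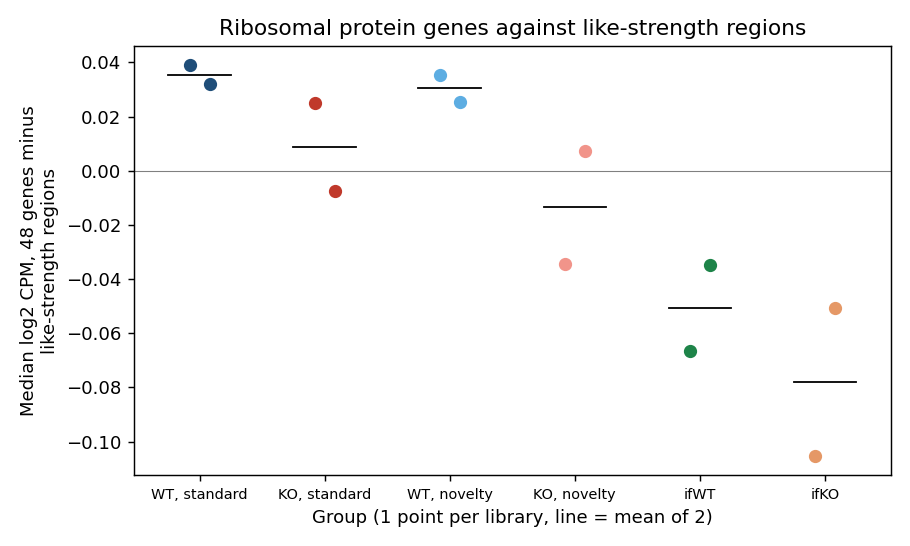
Median log2 CPM of the 48 ribosomal protein genes minus that of like-strength regions, with 1 point per library and a line at the mean of each group's 2 libraries. Values fall from 0.03 to 0.04 in WT to -0.11 and -0.05 in ifKO.

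Kdm5C signal had been deposited for 2321 regions, and these overlapped 22 of the 48 ribosomal protein regions by at least 1 base (45.8%). The same share was 22.4% of like-strength regions, 6.43% of all regions and 18.8% (6 of 32) of the other cytosolic ribosomal protein genes. These overlaps have no replicate, and the choice of the 2321 regions is not described in the labels used here. In read equivalents of 50 covered bases, the 22 regions held 9.92 to 93.0 in the WT Kdm5C library, with a median of 38.2, against a median of 26.9 over all 2321. In the KO library they held 0 to 31.0 with a median of 4.50, and all 22 were below their WT value, as were 99.6% of all 2321 regions, whose KO median was 5.62. Each genotype had 1 library, and the signal was not scaled between libraries. H3K4me1 signal in the 22 regions, likewise from 1 library per genotype and not scaled, had medians of 3.56 in WT and 2.28 in KO.

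Rpl10a had the highest Kdm5C signal of the 22, with 93.0 read equivalents in WT and 15.0 in KO, which ranked 61st of the 2321 in WT. Its Kdm5C region was 901 bp wide, and per base it ranked 529th, behind Rps21 (179th), Rpl37 (218th) and Rplp0 (244th) among the 22. The overlap counted for Rplp0 lies in the region at the end of Gcn1, 5210 bp from the Rplp0 start. The H3K4me1 signal at Rpl10a was also the highest of the 22, at 25.3 in WT and 11.4 in KO. Rpl14 (78.5 and 13.7), Rpl3 (64.3 and 31.0), Rpl38 (63.9 and 16.2) and Rps3 (62.4 and 25.4) followed in Kdm5C signal in WT and KO. Rpl15 had 22.6 in WT and 5 in KO, and Rpl22 had no overlapping region. Of the 22 genes with a Kdm5C region, 6 fell and 1 rose in the averaged KO comparison, with a median change of -0.08. Of the 26 without, 15 fell and none rose, with a median of -0.12. Of like-strength regions 34.0% fell with an overlap and 48.7% without, with medians of -0.07 and -0.10, so the order of the shares was the same there. The Spearman correlation of WT Kdm5C signal and averaged KO change was 0.42 over the 22 genes and 0.31 over 960 like-strength regions, and for the ifKO change it was -0.04 and 0.21. The points share 1 Kdm5C library, and the signal is not scaled to region width.

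**Figure D5:**
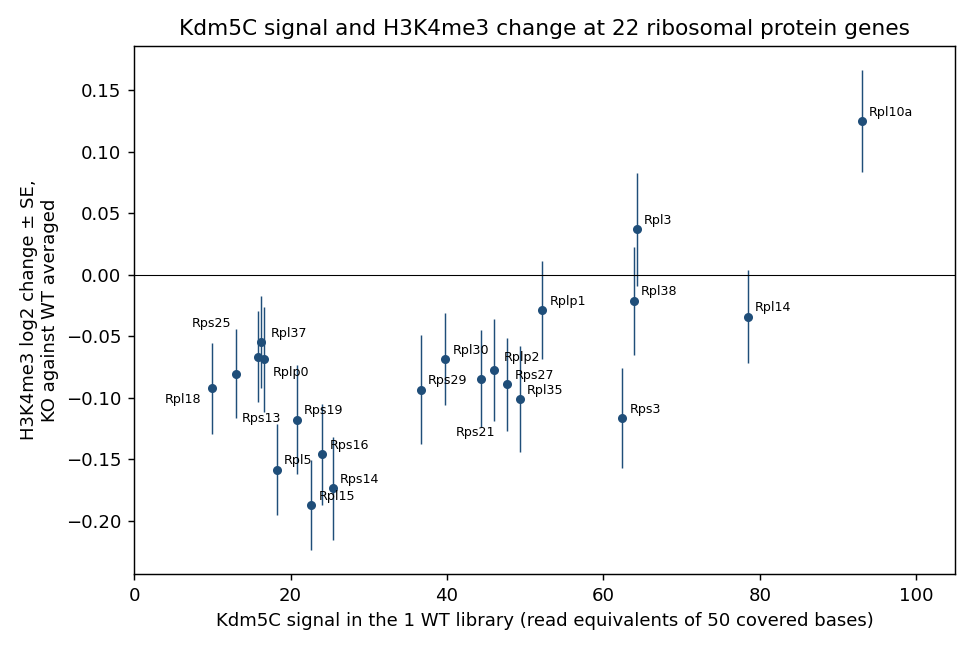
H3K4me3 log2 change ± SE, KO against WT averaged over both conditions, against Kdm5C signal in the 1 WT library (read equivalents of 50 covered bases) for the 22 ribosomal protein genes that overlap a Kdm5C region. Rpl10a, with the highest signal of 93.0, is the point farthest above 0, and Rpl15 at 22.6 is the lowest.

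Changes split by promoter sequence overlapped widely. Genes with the pyrimidine run beginning within 5 bases of the start had a median averaged KO change of -0.09 (18 genes). Those without it had -0.12 (21 genes). Genes with CCGGAAG had -0.12 (16 genes), and those without it -0.09 (23 genes). Each pair of ranges overlapped, from -0.19 to -0.02 with the run and from -0.19 to 0.12 without it. For Rpl19, Rpl24 and Rplp0 the sequence is from the listed start, but the change is from a region away from it. Rpl19, counted with the run and with CCGGAAG, changed by -0.04 at its listed start (edgeR adjusted p 0.48).

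In the averaged KO comparison, in which 13.9% of all regions and 45.4% of like-strength regions fell, the share that fell was 28.1% of the other cytosolic ribosomal protein genes, 45.7% of the mitochondrial ones, 39.2% of ribosome biogenesis genes and 60.4% of translation factors. The differences between these lists were not tested. Of 32 other cytosolic ribosomal protein genes, 9 fell and none rose by edgeR, DESeq2 or limma-voom, with 13 lower and none higher at an unadjusted p under 0.05 and a median of -0.07. Rpl13a (-0.18, adjusted p 0.0024) and Fau, which shares its region with the mitochondrial ribosomal gene Mrpl49 (-0.18, adjusted p 0.0014), led them. Among values above 0 the smallest p were at Rpl21 (0.05, edgeR adjusted p 0.36) and Rpl10 (0.04, adjusted p 0.58), neither called. Of 81 regions of mitochondrial ribosomal protein genes, 37 fell and 2 rose, with a median of -0.10. Mrps15 (-0.20, region with Csf3r) and Mrpl18 (-0.17, region with Tcp1) fell. Mrps18b, at a region with Ppp1r10, and Mrpl38, at a region with Trim65, rose by 0.33 and 0.36. Those regions also rose in ifKO, by 0.28 (adjusted p 0.0013) and 0.34 (adjusted p 0.0010).

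Of 74 ribosome biogenesis genes, 29 fell and none rose by any of the 3 tools (41 lower and none higher at an unadjusted p under 0.05), with a median of -0.09; Utp4 (-0.22, adjusted p 6.9e-05) and Gtpbp4 (-0.19, adjusted p 1.6e-04) led them. Among biogenesis genes with values above 0, the smallest p were at Nop56 (0.06, edgeR adjusted p 0.27) and Tsr1 (0.04, adjusted p 0.43), neither called. Of 53 translation factors, 32 fell and 1 rose, with a median of -0.11. Eif4g1, the scaffold of the cap-binding complex, changed by -0.22 (adjusted p 2.9e-04) and Eif5a by -0.22 (adjusted p 2.0e-04). Eef1a2, the neuronal form of the elongation factor eEF1A, rose by 0.14 (adjusted p 0.0069). Eif4g3 also had a change of 0.14, which did not pass the test (edgeR adjusted p 0.068). These lists were chosen with earlier results of these data known.

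Among 6 regions of copies related to ribosomal protein genes, 2 rose and 1 fell, and Rps4l had by far the largest change. Rps4l is a copy related to Rps4x, a small-subunit gene on the X chromosome. Its region (chr6:148354317-148355988) held 15.9 and 16.8 CPM in WT and 75.8 and 74.5 CPM in KO under standard conditions. After novelty it held 17.1 and 12.9 CPM in WT and 76.7 and 75.8 CPM in KO. The log2 change averaged over conditions was 2.28 ± 0.07 (adjusted p 1.3e-21), and it was called in all 16 alternatives. In the C57BL/6J cohort it held 15.4 and 17.9 CPM in ifWT and 16.4 and 23.2 CPM in ifKO, a change of 0.24 ± 0.12 (adjusted p 0.28). The KO libraries thus stood at the level of the ribosomal protein genes themselves, and the ifWT and ifKO libraries near WT. Rpl7l1, which shares a region with 2310039H08Rik, rose by 0.10 in KO (adjusted p 0.044) and by 0.26 in ifKO (adjusted p 0.0046). Rpl36al, at a region with Mgat2, fell by 0.10 in KO (adjusted p 0.034).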

How the data were processed

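H3K4me3 was measured by chromatin immunoprecipitation and sequencing in 12 libraries. For 1 ifWT library the title has H3K3me3 and the antibody label H3K4me3, which was followed. The authors deposited read counts per region, raw per the file headers, for 36005 regions, of which 9 repeats were removed here. The deposited Kdm5C and H3K4me1 values are treated as a signal of covered bases, although the file headers call them raw counts, because their values behave as summed coverage. The submitters' processing notes name MACS2 2.1.0, featureCounts, Bowtie2 2.2.9, R 3.3, DESeq2 1.10.0 and SAMtools 1.3.1, with mm10; no label describes the definition of the regions.

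All 12 libraries were fitted together in edgeR 4.0.16 (R 4.3.3) with TMM factors, filterByExpr and quasi-likelihood tests, Benjamini-Hochberg adjusted over 35955 regions with a threshold of 0.05. No covariate was used. Code was tested on simulated data. Alternatives were RLE factors, library totals, offsets fitted to region strength (loess span 0.3), DESeq2 1.42.0, limma-voom (limma 3.58.1), no filter, only the groups compared, a replicate block, each library left out, a 1 kb window, the region at the listed start and a wider strength range. Gene positions are RefSeq's, GRCm38.p6, without strand. The labels do not say that libraries of a group came from separate experiments, so p-values measure the spread between pools. Intervals are not given for counts; precision is limited by 2 libraries a group.

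The genes, lists and motifs were chosen with earlier results of these data known. Genes named were the 12 smallest p in the averaged KO comparison, the 5 smallest in ifKO, the 3 smallest in each novelty comparison and the interaction, the 3 highest and lowest levels, 7 chosen by function (Rpl5, Rpl11, Rps19, Rps6, Rplp0, Rpl3 and Rps14) and, in each other list, the 2 smallest p in each direction. Others were named where a count of called genes was given.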

Additional observations from a re-analysis of the deposited data

Results flagged for a closer look

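At Rps4l the KO effect under standard conditions exceeded the ifKO effect by 1.96 ± 0.16 on the log2 scale (edgeR adjusted p 5.2e-09; 0.701% of all regions were called in this difference), from changes of 2.198 in KO and 0.24 in ifKO. The difference was called in all 16 alternatives, with values of 1.72 to 2.23. The cohorts differ in strain background as well as in mouse line, which cannot be told apart.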

How the results depend on the processing

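No gene called for a comparison changed direction in it under the alternatives run. Among values not called, 54 at named genes changed sign, over 23 pairs of gene and comparison, as did 8 medians against like-strength regions, over 3 comparisons (KO averaged, ifKO and novelty in KO). The 240 values recomputed for the counts of called genes and for the medians against like-strength regions stayed within 1.5 times or the spread between libraries in 213 cases. Called genes under standard conditions went from 10 to 1 with library totals and 2 with offsets fitted to strength. After novelty they went from 5 to 8 with RLE factors, 3 with library totals, 8 with limma-voom, 1 with strength offsets, 9 with only the groups compared, and 3 of 38 with the region at the listed start. In the average they went from 22 to 11 with library totals and 4 with strength offsets. In ifKO the 1 call was 0 with limma-voom, strength offsets and only the groups compared. Leaving out 1 library gave 1 to 2 under standard conditions, 0 to 4 after novelty, 11 to 22 in the average and 0 to 1 in ifKO. It moved the members' median minus that of like-strength regions for novelty in WT to between -0.019 and -0.0115 and for the interaction to between 0.0008 and 0.0407. Where this left 1 library in a group, its spread was assumed to be that of the others. Correlations of same-numbered libraries were 0.13 between standard and novelty in WT and 0.12 in KO. They were -0.05 to 0.02 in the other pairs of groups within a cohort. Whether replicate numbers mark paired libraries cannot be told from these values. With a replicate block 8, 4, 21 and 1 genes were called under standard conditions, after novelty, in the average and in ifKO. None was called with it in the other comparisons. For the genes named one by one, 1406 values kept their side of the threshold, 116 fell short of it and 26 passed it newly. With 2 libraries a group and standard errors near 0.06, changes as small as those seen in KO were near the limit of detection.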
